A study of Mus musculus with 20 samples.

Results

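Levels of 10 S100 genes, which encode calcium-binding proteins and include several alarmins, were followed across 20 arrays of mouse hair follicle stem cells: S100a3, S100a4, S100a6, S100a7a, S100a8, S100a9, S100a10, S100a11, S100a14 and S100a16. They were taken by symbol, each through its brightest probe, and 9 of the 10 were among the 18727 genes tested on the arrays. These bulge cells, which rebuild the follicle at each hair cycle, came from male mice. Aged mice were 24 months old, with no diet given in the labels. Mice of 5 months had received a high fat diet (HFD) or a normal diet (ND) over 3 months, and mice of 2 months had received HFD or ND over 4 days. Each of these 5 conditions had 1 array from anagen, the growth phase of the hair cycle, and 3 arrays from telogen, its resting phase. The labels do not say how the cells were isolated or whether arrays of a group came from separate animals, so a p-value here reflects only the spread between samples, which may be technical.

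S100 proteins are small and bind calcium through EF-hand motifs, and several are released by stressed or dying cells and then act as alarmins on their neighbours. S100a8 and S100a9 form calprotectin, which is abundant in neutrophils and is induced in stressed or wounded keratinocytes, and which signals through the receptors encoded by Tlr4 and Ager. Other members act inside the cell, where S100a10 and S100a11 bind annexins, S100a6 binds the product of Cacybp and S100a4 binds non-muscle myosin. In skin, S100a3 is best known from the cuticle of the hair shaft, and S100a7a is a mouse relative of human psoriasin.

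Of the spots outside the controls, 60.7% to 83.5% passed the background call. All 11 bulge stem cell markers listed, Krt15, Cd34 and Lgr5 among them, were well above background on all 20 arrays. All anagen arrays lay in column 1 of their slide and all telogen arrays in the other columns, so hair cycle phase and column cannot be told apart. The signal at the 75th percentile of an array, which sets the scale, was 1483 to 2717 units on the anagen arrays and 1184 to 2609 units on the telogen arrays. It was 1483 on the HFD 3 months anagen array and at least 2119 on the other 4 anagen arrays. It was 2594 and 2609 on 2 aged telogen arrays and 2008 on 1 ND 4 days telogen array, against at most 1667 on the remaining 12 telogen arrays.

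A level below is the log2 of a probe's signal over that 75th percentile, and levels of different genes are not set against each other because probes differ in brightness. The probes of S100a3, S100a4, S100a6, S100a10, S100a11, S100a14 and S100a16 were well above background on all 20 arrays. S100a9 was well above background on 10 arrays, S100a8 on 6 and S100a7a on 4. S100a7a was left out of the tests because it was above background on 0 of the 5 anagen arrays and in no telogen group on all 3 arrays. Its level ran from -7.15 to -5.38 in anagen and from -7.72 to -2.88 in telogen. S100a8 and S100a9 passed the filter on dim probes only through their anagen arrays.

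The 10 genes all lie on chromosome 3. In the RefSeq annotation of build GRCm38.p6, the order of coding genes runs S100a13, S100a14, S100a16, S100a3, S100a2, S100a4, S100a5, S100a6, S100a7a, S100a8 and S100a9. A run of 56 coding genes of the epidermal differentiation complex, which encodes proteins of the cornified layer, then separates S100a9 from S100a11 and S100a10. The 200 bases before the annotated start are shown for the pair of members with the smallest p between the phases of the hair cycle, S100a4 and S100a8, and for their near neighbours S100a6 and S100a9. They are given 5′ to 3′ on the strand of the gene, from RefSeq at build GRCm38.p6, and the capitals mark the letters TATAAA.
S100a4 (chr3:90603570-90603769, plus strand): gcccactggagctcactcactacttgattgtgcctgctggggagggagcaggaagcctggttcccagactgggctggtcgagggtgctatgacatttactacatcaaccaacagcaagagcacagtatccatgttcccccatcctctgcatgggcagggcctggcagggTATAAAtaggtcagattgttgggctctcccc
S100a8 (chr3:90668871-90669070, plus strand): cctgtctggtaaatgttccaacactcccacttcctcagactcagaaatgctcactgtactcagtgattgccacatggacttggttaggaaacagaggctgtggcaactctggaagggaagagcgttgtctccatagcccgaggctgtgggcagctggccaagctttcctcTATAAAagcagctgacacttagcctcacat
S100a6 (chr3:90612694-90612893, plus strand): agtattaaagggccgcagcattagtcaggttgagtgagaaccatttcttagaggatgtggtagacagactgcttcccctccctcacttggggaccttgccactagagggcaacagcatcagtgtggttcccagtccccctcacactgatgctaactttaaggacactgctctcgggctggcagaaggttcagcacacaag
S100a9 (chr3:90695722-90695921, minus strand): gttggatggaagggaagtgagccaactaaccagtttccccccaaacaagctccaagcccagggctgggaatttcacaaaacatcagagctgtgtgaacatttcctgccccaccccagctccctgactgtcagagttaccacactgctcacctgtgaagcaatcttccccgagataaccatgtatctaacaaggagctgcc
The letters TATAAA, the core of a TATA box, start 31 bases before the start of S100a4 and 30 bases before that of S100a8. The windows of S100a6 and S100a9 do not hold them. Searched on both strands over 250 bases, they occurred in 12.4% of all 32851 promoters of the table. The letters also start 52 bases before the third of the 4 annotated starts of S100a3. No other window of a member held them, and S100a10 and S100a14 were not among the promoters searched.

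Anagen was compared with telogen to ask which S100 genes differ between growing and resting follicles. Of the 7 members above background on all 20 arrays, S100a4, S100a3 and S100a6 fell in anagen, 0 rose, and S100a10, S100a11, S100a14 and S100a16 did not pass the test. Of the 13011 genes above background on all 20 arrays 6.63% were called, 3.74% lower and 2.89% higher, and of all 18727 genes tested 6.11% were called, 3.31% lower and 2.81% higher. S100a8 was also called, higher in anagen, and S100a9 was not, but both entered the test through the phase in which their probes were detected more often, so they are described on their own and support no count. The test was limma's moderated test with condition as a factor and Benjamini-Hochberg adjustment over all genes, at an adjusted p below 0.05. The median log2 difference of the 7 members was -0.60, and that of the genes above background on all 20 arrays was -0.093. In bulk samples of this kind, fewer cells of a type and less RNA per cell cannot be told apart.

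S100a4, also known as metastasin and used as a fibroblast marker, had the smallest p of the members. Its level was 4.48 on the aged anagen array, 5.53 on HFD 3 months, 4.63 on ND 3 months, 4.43 on HFD 4 days and 4.26 on ND 4 days, against a telogen range of 6.12 to 7.57 with a median of 6.89. Every anagen array lay below every telogen array, a separation in this direction that 0.716% of all genes showed. The log2 difference was -2.26 ± 0.25 (SE, 5 anagen and 15 telogen arrays), a signal ratio of 0.209, with limma's adjusted p = 7.81e-05, and it ranked 23 of 18727 by p. Within a condition the anagen array lay below the telogen mean by 2.83 log2 units in ND 4 days and by 1.24 in HFD 3 months, the 2 ends of the range. Without any scaling between arrays the difference was -1.87, and the unscaled log2 signals of 15.38 to 16.06 in anagen lay below those of 17.27 to 17.97 in telogen.

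Fibroblast markers were set beside S100a4. Of the 6 listed, 4 were tested: Col1a2, a collagen chain, fell by 1.90 on the log2 scale (adjusted p = 0.0021), and Col1a1 and Col3a1 were not called. Dcn, the proteoglycan decorin, was above background on 3 anagen and 0 telogen arrays and entered the test only through them, so its difference of 2.44 (adjusted p = 0.0118) is a description. Pdgfra and Lum were well above background on 6 and 2 arrays and were not tested. The mean level of the tested markers was -3.38 to -1.68 in anagen and -3.71 to -2.20 in telogen, ranges that overlap. Their part in the S100a4 difference was not tested.

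S100a3 was the other strongly lowered member, with a spread among anagen arrays that S100a4 did not have. Its anagen levels were -0.85 in aged, 1.48 in HFD 3 months, 0.96 in ND 3 months, -3.35 in HFD 4 days and -2.09 in ND 4 days, against a telogen range of 0.57 to 2.47 with a median of 1.61. The aged and both 4 days anagen arrays lay below all telogen arrays, whereas both 3 months anagen arrays lay within the telogen range. The log2 difference was -2.35 ± 0.54 with limma's adjusted p = 0.0154, and the SD of the anagen levels was 2.03 against 0.53 in telogen (n = 5 and 15 arrays). The call was lost without the HFD 4 days anagen array (-1.72, adjusted p = 0.0813) and without the ND 4 days one (-1.87, adjusted p = 0.0854). It was also lost with only the 3 conditions whose anagen and telogen arrays shared a slide (-2.32, adjusted p = 0.071). Hair shaft and cuticle markers, with which S100a3 is best known, were set beside it. Of 5 tested, 0 passed limma's test after adjustment and 0 at an unadjusted p below 0.05. Krt35, Krt82 and Krt86 were well above background on only 2 anagen arrays each, and on 5, 7 and 10 telogen arrays. They entered the test only through telogen, so their values are descriptions. Krt31 and Krt32, above background on all arrays, had differences of -0.35 and -0.73. Krt85 had no matched probe. The part of this list in the S100a3 difference was not tested.

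S100a6, or calcyclin, was lower by a smaller step. Its anagen levels were 6.63 in aged, 7.44 in HFD 3 months, 6.71 in ND 3 months, 6.58 in HFD 4 days and 6.60 in ND 4 days, against a telogen range of 6.98 to 8.10 with a median of 7.49. The HFD 3 months anagen array thus lay within the telogen range, and the other 4 lay below all telogen arrays. The log2 difference was -0.72 ± 0.21 with limma's adjusted p = 0.0477, close to the threshold. It kept this call under 12 of 32 alternatives, and leaving out any 1 of 14 arrays was enough to lose it. Without scaling between arrays it was -0.34 (adjusted p = 0.148), and with quantile normalization -0.37 (adjusted p = 0.0696).

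S100a10, or p11, the partner of annexin A2, had values on the same side without passing the test. Its anagen levels were 4.66 in aged, 4.93 in HFD 3 months, 4.16 in ND 3 months, 4.21 in HFD 4 days and 4.35 in ND 4 days, against a telogen range of 4.54 to 5.62 with a median of 5.07. Both 4 days arrays and the ND 3 months array lay below all telogen arrays, and the other 2 lay within their range. The log2 difference was -0.60 ± 0.19 with limma's adjusted p = 0.0724. A second probe of the gene differed by -0.67 on average. Without the HFD 3 months anagen array the difference was -0.74 and was called (adjusted p = 0.0288), as it was with quantile normalization (-0.47, adjusted p = 0.0321). It was called under only 5 of 32 alternatives, over which the difference ran from -0.74 to -0.21 and limma's adjusted p from 0.0278 to 0.357.

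**Figure D1:**
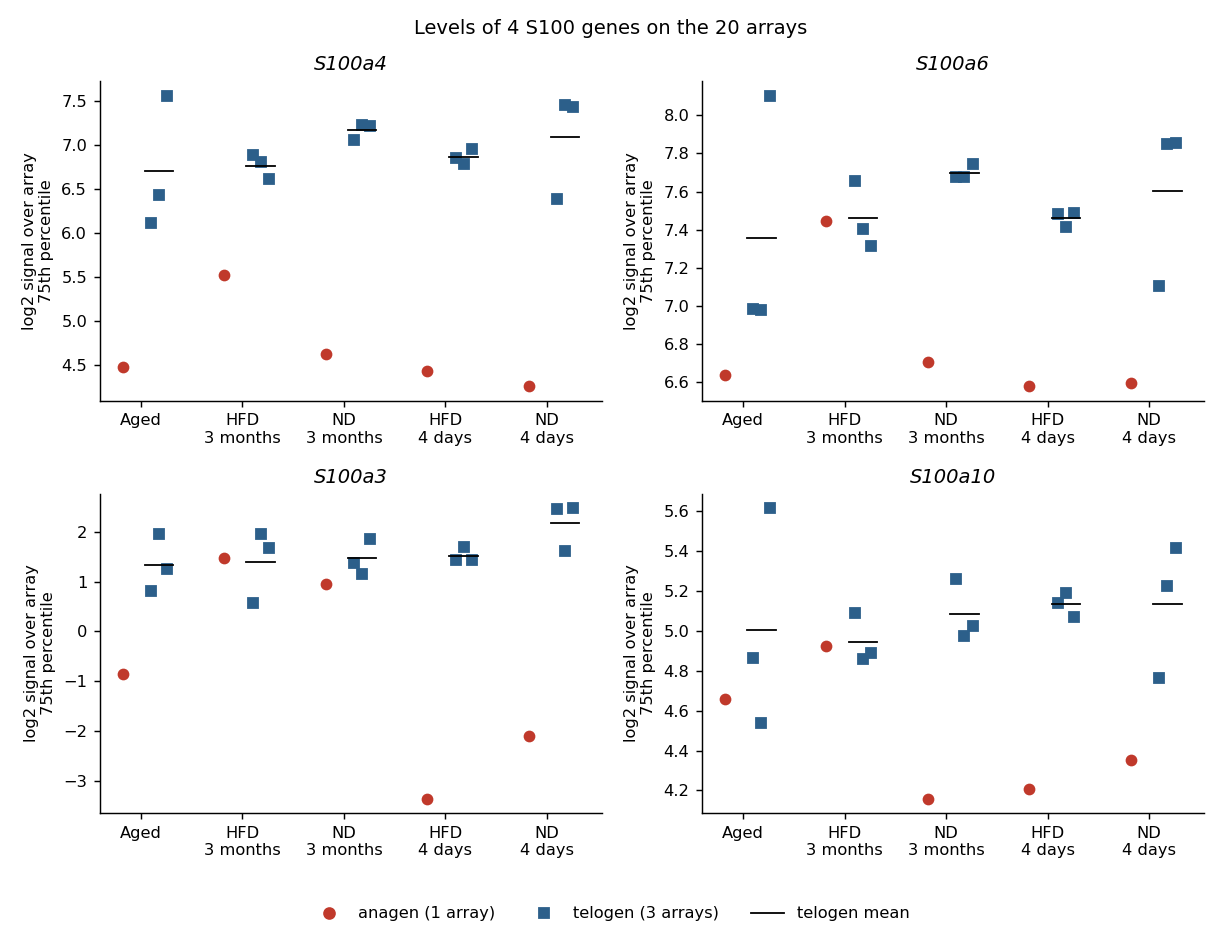
Levels (log2 signal over the array's 75th percentile) of S100a4, S100a6, S100a3 and S100a10 on all 20 arrays, by condition, with the anagen array as a circle, the 3 telogen arrays as squares and their mean as a line. All 5 anagen circles lie below all 15 telogen squares for S100a4, whereas the HFD 3 months anagen array lies among the telogen arrays for the other 3 genes.

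The levels of 5 bright members also moved with the signal of the whole array. Across the 20 arrays, the level of S100a6 had a Pearson correlation of -0.88 with the log2 of the array's 75th percentile signal, S100a11 of -0.86, S100a10 of -0.82, S100a4 of -0.72 and S100a14 of -0.61. It was -0.54 for S100a3 (0.11 over the 15 telogen arrays) and 0.22 for S100a16, the other members above background on all 20 arrays. Over the 15 telogen arrays alone it was -0.86 for S100a6, -0.88 for S100a11, -0.78 for S100a4 and 0.25 for S100a16. These levels contain that percentile as their divisor, so the correlations are a description only. The 2 aged telogen arrays and the ND 4 days telogen array with the highest percentiles had the 3 lowest telogen levels of S100a4, at 6.12, 6.44 and 6.39. The HFD 3 months anagen array had the lowest percentile in anagen and the highest anagen levels of S100a4, S100a6, S100a10, S100a11 and S100a14.

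S100a8, 1 of the 2 subunits of calprotectin, was measured on every anagen array and on hardly any telogen array. Its anagen levels were 1.30 in aged, -0.39 in HFD 3 months, -4.55 in ND 3 months, -4.18 in HFD 4 days and -0.89 in ND 4 days, all well above background. In telogen it was well above background on 1 of 15 arrays, replicate 1 of HFD 4 days, with a level of -1.80, and the lowest and median telogen values were -8.14 and -7.13. The anagen levels differed among themselves by 5.85 log2 units, from ND 3 months at the low end to aged at the high end. The log2 difference was 5.12 ± 0.93 with limma's adjusted p = 0.0036, and its size depends on telogen values that are not well above background. Its anagen arrays also brought the gene into the test. With no filter on dim probes, where all 10 members were tested, its adjusted p was 0.0043, and the 3 members called were S100a3, S100a4 and S100a8.

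Bounds that do not rest on those values were taken within conditions, each telogen array standing at its lowest signal that still passed the background call, or at the gene's own value where higher. S100a8 was at least 91.9-fold higher in anagen than in telogen in aged mice, at least 25.5-fold higher in HFD 3 months, at least 2.24-fold higher in ND 3 months and at least 32.8-fold higher in ND 4 days. In HFD 4 days the anagen array lay within the telogen range, below telogen replicate 1. The direction was thus shared by 4 conditions, with a size that varied widely between single arrays. The adjusted p lay between 0.00018 and 0.0205 over the 31 alternatives that could be run, all but the one with no filter sharing that filter.

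S100a9, the other calprotectin subunit, did not pass the test. Its anagen levels were 2.28 in aged, -6.75 in HFD 3 months, -4.13 in ND 3 months, -2.11 in HFD 4 days and 0.16 in ND 4 days, and only the HFD 3 months value was not well above background. In telogen 6 of 15 arrays were well above background, and levels ran from -7.38 to -0.88 with a median of -5.43. The anagen array lay above its 3 telogen arrays in 4 conditions and below them in HFD 3 months. The log2 difference was 2.94 ± 1.14 with limma's adjusted p = 0.139. Without the HFD 3 months anagen array, the one on which it was not detected, it was 4.48 (adjusted p = 0.0138), a value given as a description because the gene entered the test through its other anagen arrays.

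On the HFD 3 months anagen array S100a8 was well above background and S100a9 was not, whereas both were on the other 4 anagen arrays. Over the 20 arrays the Pearson correlation of S100a8 with S100a9 was 0.53, and over the 15 telogen arrays it was 0.09, where most values of S100a8 were not well above background.

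**Figure D2:**
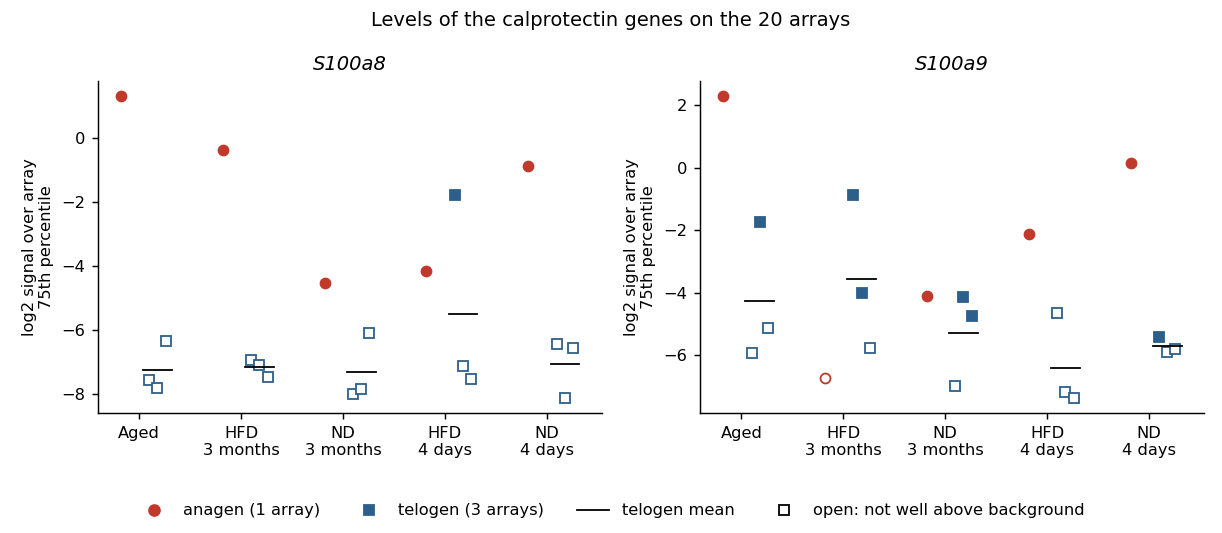
Levels (log2 signal over the array's 75th percentile) of S100a8 and S100a9 on all 20 arrays, by condition, with anagen as circles, telogen as squares and the telogen mean as a line; open symbols were not well above background. S100a8 is filled on all 5 anagen arrays and 1 telogen array, and S100a9 is open on the HFD 3 months anagen array.

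Markers of cells that carry calprotectin were set beside this difference. Of 9 neutrophil markers, 7 were tested and 1 was called: Cxcr2, a receptor for neutrophil-attracting chemokines, rose by 2.23 ± 0.39 (adjusted p = 0.0025). Csf3r, Mmp8, Camp and Mpo had log2 differences of -0.37, -0.86, -0.64 and -0.24 and were not called. Mmp8 was well above background on 2 anagen and 7 telogen arrays and entered the test only through telogen. Retnlg was well above background on 3 of 20 arrays and Ly6g had no matched probe. The mean level of the tested neutrophil markers was -3.10 to -1.84 in anagen and -2.82 to -1.41 in telogen. Of 5 tested macrophage and Langerhans cell markers, 0 passed limma's test after adjustment and 0 at an unadjusted p below 0.05.

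Markers of the differentiating epidermis were set beside S100a8 as well. Of 7 suprabasal markers, 6 were tested and 5 had a difference above 0, with a median of 0.68. Of all genes 39.6% lay above 0, with a median of -0.16. Of the 6, 1 was called higher, against 2.89% of the genes above background on all 20 arrays. Krt1, a keratin of suprabasal cells, rose by 1.26 ± 0.36 (adjusted p = 0.0477), and Krt10, Ivl and Lor had differences of 0.57, 1.47 and 0.78 and were not called. The mean level of these markers was 4.31 to 4.83 in anagen and 3.01 to 4.96 in telogen. Of 11 bulge stem cell markers, 3 fell: Cd34 by 2.19, Krt15 by 0.81 (adjusted p = 0.0137) and Col17a1 by 0.72 (adjusted p = 0.0128). Of the genes above background on all 20 arrays, 3.74% were called lower. In total 10 of the 11 bulge markers had a difference below 0 and 1 above it. The mean level of the bulge markers was 4.24 to 4.47 in anagen and 4.31 to 5.11 in telogen. The part of either list in the S100 differences was not tested.

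S100a11, S100a14 and S100a16 were bright and differed little. S100a11, which binds annexin A1, ran from 5.07 to 5.90 in anagen and from 5.10 to 5.93 in telogen, a log2 difference of -0.19 with a 95% interval of -0.56 to 0.19. Its direction turned with the scaling: the difference was 0.025 with scaling by the median and 0.20 without scaling. S100a14, an epithelial member, ran from 5.52 to 6.37 in anagen and from 5.02 to 6.07 in telogen, a difference of 0.08 with an interval of -0.27 to 0.43. S100a16 ran from 4.23 to 5.27 in anagen and from 3.87 to 5.12 in telogen, a difference of 0.08 with an interval of -0.30 to 0.46. Its second probe differed by -0.05. Differences of a size within these intervals remain possible for the 3 genes.

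**Figure D3:**
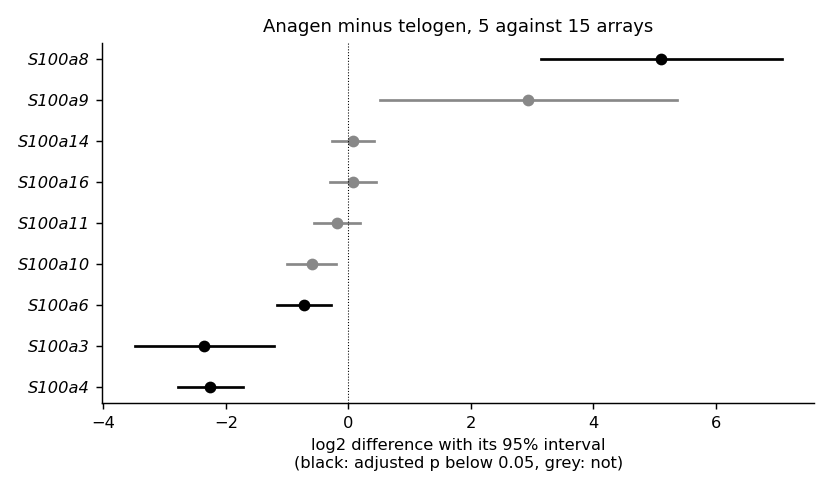
Anagen minus telogen log2 difference of the 9 tested S100 genes, with 95% intervals from the limma fit over 5 anagen and 15 telogen arrays; black marks an adjusted p below 0.05. The intervals of S100a4, S100a3 and S100a6 lie below 0 in black and that of S100a8 above it, from 3.15 to 7.09. S100a8 and S100a9 entered the test only through their anagen arrays. S100a8 was well above background on 1 of the 15 telogen arrays, so its interval is a description.

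The position of the members in the cluster was set beside their differences. Between S100a3 and S100a6, a stretch of 5 coding genes, S100a3, S100a4 and S100a6 were called lower, S100a5 had a difference of -2.04 ± 1.01 that was not called, and S100a2 one of 0.27. S100a8 and S100a9 lie next to each other at the far end of the stretch, beyond S100a7a. In the run between S100a9 and S100a11, 45 of 56 coding genes were tested, of which 12 were called higher in anagen and 0 lower, against 2.81% and 3.31% of all genes. Of these 12, Lce1f, Lce1k and Sprr2d entered the test only through their anagen arrays. Among the 23 genes of the run above background on all 20 arrays, 6 were called higher and 0 lower, against 2.89% and 3.74%. The 12 were 6 Sprr genes and 5 Lce genes, which encode precursors of the cornified envelope, and Hrnr. Sprr1b, with a difference of 5.48 ± 1.09, was the furthest from 0 of these genes, and was named after its value was seen. Sprr2 and Lce1 genes are close copies of each other, so their probes may share targets.

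**Figure D4:**
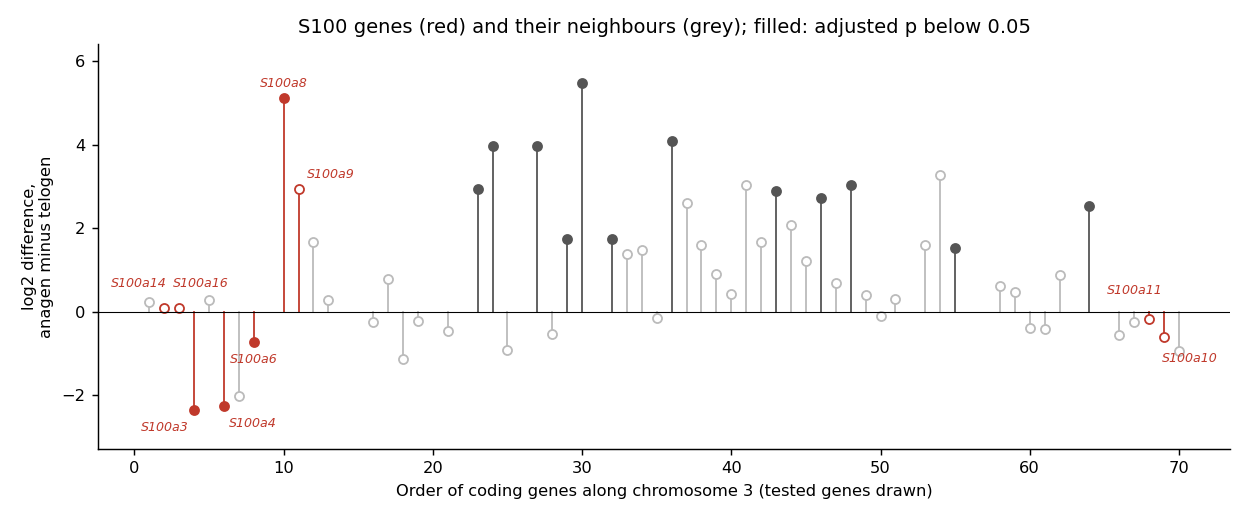
Anagen minus telogen log2 difference of tested genes in the order of coding genes along chromosome 3, with S100 members in red, neighbours in grey and filled points for an adjusted p below 0.05. S100a3, S100a4 and S100a6 lie below 0 near the left end, S100a8 at 5.12 next to S100a9, and the 12 filled grey points between S100a9 and S100a11 all lie above 0. S100a8 and S100a9 entered the test only through their anagen arrays, as did Lce1f, Lce1k and Sprr2d of the filled grey points.

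Other genes of the S100 system were followed through the same fit. Of 7 other S100 genes and S100pbp, which encodes a protein that binds human S100P, 7 of 8 were tested and limma called 0 after adjustment. S100g, a calcium-binding protein of the vitamin D response, had the smallest p of these, at -0.90 ± 0.41. It was well above background on 1 anagen and 12 telogen arrays and entered the test only through telogen, so this value is a description. Of the 6 fused-type S100 proteins, which join an S100 domain to long repeats, 4 were tested and Hrnr, encoding hornerin, rose by 2.53 ± 0.45 (adjusted p = 0.0029). Flg2 and Tchh had differences of 0.87 and -0.56 and were not called.

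Receptors and adaptors for S100 alarmins did not pass the test. Of 10 tested, limma called 0 after adjustment. Tlr4, the calprotectin receptor, had a difference of -1.92 ± 0.65 (adjusted p = 0.0918). It was well above background on 0 anagen and 10 telogen arrays and entered the test only through telogen, so this value is a description. Ly96, its co-receptor MD2, had a difference of -0.39 ± 0.18 (adjusted p = 0.206). A second Ly96 probe had a mean level of -1.12, against 7.52 for the one used, and whether both report the gene was not tested. Ager, which encodes the receptor RAGE, had a difference of 0.05 ± 0.18. Among 10 intracellular binding partners limma likewise called 0. Of these, 7 had a difference below 0 and 3 above it, where 39.6% of all genes lay above 0. Anxa2, the partner of S100a10, had a difference of -0.49 ± 0.15 (adjusted p = 0.0694), close in size to that of S100a10 itself. Anxa11, Ahnak and Nucb1 had differences of -2.10, -0.40 and -0.50.

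Among 14 other alarmins and antimicrobial genes, 13 were tested and 1 was called. Hmgb2, a chromatin protein that also marks dividing cells, rose by 0.90 ± 0.19 (adjusted p = 0.0108). The cytokines Il18 and Il33 had differences of 2.40 ± 0.75 (adjusted p = 0.0705) and 1.70 ± 0.63 (adjusted p = 0.124), and the antimicrobial genes Lcn2 and Slpi of -0.74 and -0.56. Dimmer probes of Lcn2 and Slpi were well above background on 2 and 4 arrays, against 20 for the probes used. Of 7 genes listed as neutrophil attractants or their inducers, 5 were tested, and Il17ra, the interleukin 17 receptor chain, fell by 1.12 ± 0.24 (adjusted p = 0.0112). Cxcl1, Cxcl5 and Csf3 had differences of 1.02, -0.49 and -0.69 and were not called. Cxcl1 entered the test only through its anagen arrays, and Cxcl5 and Csf3 only through telogen, so these values are descriptions.

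Diet was compared within telogen, 3 HFD against 3 ND arrays at each duration, to ask whether feeding changes S100 levels before hair growth. After 3 months limma called 0 of the 9 members after adjustment, as it did for 0% of all genes, and 0 members had an unadjusted p below 0.05, against 3.90% of all genes. S100a4 had levels of 6.89, 6.81 and 6.61 in HFD mice, against 7.06, 7.23 and 7.22 in ND mice. S100a6 had levels of 7.66, 7.40 and 7.32 in HFD mice, against 7.68, 7.67 and 7.74 in ND mice. Both genes were lower on every HFD array, a separation in 1 direction or the other that 9.85% of all genes showed. Their log2 differences were -0.40 ± 0.38 and -0.24 ± 0.33, within the error (limma's adjusted p = 0.9995 for both).

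After 4 days of diet the count of called members was again 0, with 0 at an unadjusted p below 0.05, against 0% and 4.36% of all genes. S100a16 had levels of 3.87, 4.08 and 4.10 in HFD mice, against 4.56, 4.38 and 4.27 in ND mice. It was the only member whose groups did not overlap at this duration, where 9.70% of all genes did not, and its difference was -0.39 ± 0.28. S100a3 had the smallest p of the members, with levels of 1.44, 1.69 and 1.43 in HFD mice, against 2.45, 1.61 and 2.47 in ND mice. Its groups overlapped, and its difference was -0.66 ± 0.42 (95% interval -1.57 to 0.25, unadjusted p = 0.141). S100a8 had a difference of 1.56 ± 1.20 that rests on HFD replicate 1: without that array it was -0.29. The calprotectin genes had wide intervals, from -1.05 to 4.18 for S100a8 after 4 days and from -1.14 to 4.61 for S100a9 after 3 months. For S100a4, S100a6, S100a10, S100a11, S100a14 and S100a16 the 95% intervals of the diet differences lay between -1.23 and 0.70 at both durations, and for S100a3 after 3 months the interval was -0.97 to 0.84. S100a7a, outside the tests, was above background on 0 of the 6 HFD telogen arrays, against 3 of the 6 ND arrays, and on 1 of the 3 aged telogen arrays. The call itself was passed by fewer spots in HFD, 64.3% to 74.4%, than in ND, 73.7% to 83.5%. At 4 days, a S100a7a level of -5.66 passed on ND replicate 1 and one of -5.65 did not on HFD replicate 1. This count is thus no measure of diet.

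The diet difference itself was compared between durations, and 0 of 9 members were called by limma, with 0 at an unadjusted p below 0.05, against 0% and 3.74% of all genes. The largest such difference was 2.43 ± 1.87 for S100a9, 3 months minus 4 days. Averaged over both durations, HFD minus ND ranged from -0.36 for S100a3 to 0.86 for S100a8, with 0 members called by limma and 0 at an unadjusted p below 0.05, against 0% and 4.29% of all genes. HFD and ND arrays of a duration shared a slide but lay in different rows, and the effects of diet and of row cannot be told apart. The durations also differ in the age of the mice and in slide, which cannot be told apart from duration.

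Aged telogen follicles were compared with both ND groups, to ask whether age moves the same genes. Against ND 3 months limma called 0 of 9 members after adjustment and 0 at an unadjusted p below 0.05, where it called 0.0641% and 11.9% of all genes. S100a14 had levels of 5.02, 5.34 and 5.75 in aged mice, against 6.01, 5.80 and 5.83 in ND 3 months mice. The groups did not overlap, as for 18% of all genes, and the difference was -0.51 ± 0.27 (limma's adjusted p = 0.471). S100a4 spread over 1.45 log2 units among the aged arrays, at 6.12, 6.44 and 7.57, and S100a6 was at 6.98, 6.98 and 8.10. The aged array that was highest for both genes, replicate 3, had the lowest 75th percentile signal of all arrays, 1184.

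Against ND 4 days limma called 0 members, with 0 at an unadjusted p below 0.05, where it called 0.0374% and 7.85% of all genes. S100a3 had levels of 0.80, 1.95 and 1.24 in aged mice, against 2.45, 1.61 and 2.47 in ND 4 days mice. The groups overlapped, and the difference was -0.84 ± 0.42 (limma's adjusted p = 0.675). S100a9 had differences of 1.01 ± 1.32 against ND 3 months and 1.44 ± 1.32 against ND 4 days, with aged replicate 2 at -1.75 and the other aged arrays not well above background. The 2 comparisons share the aged arrays. Aged and ND telogen arrays lay on different slides, so age and slide cannot be told apart within telogen.

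**Figure D5:**
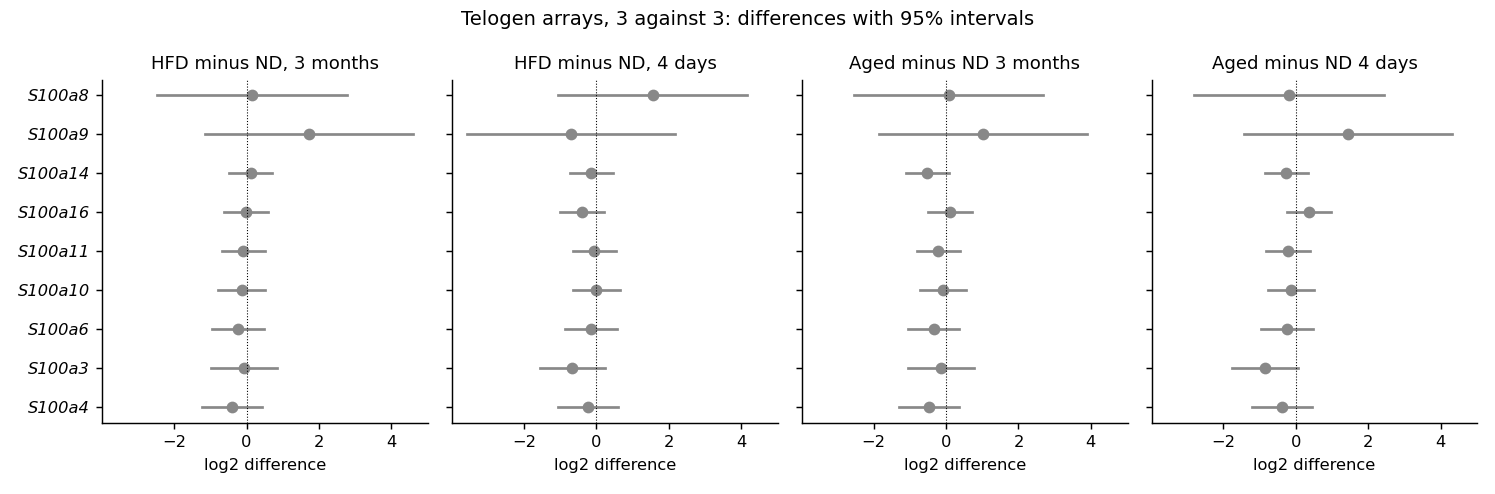
Log2 differences of the 9 tested S100 genes in telogen, HFD minus ND at both durations and aged minus either ND group, each 3 against 3 arrays, with 95% intervals from the limma fit over 15 arrays. Every interval spans 0, and those of S100a8 and S100a9 are the widest.

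The ND groups, compared as 3 months minus 4 days, also differ in age at sampling and lay on different slides, which cannot be told apart. Between them limma called 0 members, with 0 at an unadjusted p below 0.05, where it called 0.016% and 11.8% of all genes. The member furthest from 0 was S100a3, at -0.71 ± 0.42. Over all 5 telogen groups together limma's F test called 0 of 9 members, with 0 at an unadjusted p below 0.05, where it called 0.0481% and 12.4% of all genes, and the smallest adjusted p was 0.498, for S100a16. None of the other S100 genes, receptors, binding partners, alarmins or neutrophil attractants listed was called in a telogen comparison. Among the receptors, Tlr4 differed with age by 2.86 ± 0.96 against ND 3 months (adjusted p = 0.305) and 2.59 ± 0.96 against ND 4 days (adjusted p = 0.528), neither called. Camp, the cathelicidin gene, was at -1.77 ± 0.52 in HFD against ND after 3 months and at 1.60 ± 0.52 in aged against ND 3 months, neither called (adjusted p = 0.9995 and 0.305).

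In anagen each condition had 1 array, so differences between conditions have no replicate check and no test. S100a8 differed by 4.16 log2 units between HFD 3 months and ND 3 months, and S100a9 by -2.62, with the HFD value not well above background. They were the 2 members of 9 past an absolute difference of 1, where 46.6% of all genes were past it. The other 7 members, from 0.18 for S100a16 to 0.90 for S100a4, lay around the median of all genes, 0.44. Between HFD 4 days and ND 4 days S100a8 differed by -3.29, S100a9 by -2.27 and S100a3 by -1.26, 3 of 9 members against 26.6% of all genes. The HFD minus ND difference of S100a8 thus had opposite signs at the 2 durations.

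The aged anagen array had the highest levels of both calprotectin genes. S100a8 differed by 5.85 and S100a9 by 6.41 between aged and ND 3 months, and S100a3 by -1.81, 3 of 9 members past 1 where 37% of all genes were. Against ND 4 days S100a8 differed by 2.19, S100a9 by 2.13, S100a3 by 1.24 and S100a16 by 1.04, 4 of 9 members where 31.4% of all genes were past 1. The sign for S100a3 thus depended on which ND array was used. In anagen the arrays of each of these 4 pairs lay on different slides.

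Likeness across arrays was described with the Pearson correlation of levels over the 20 arrays, among 12025 genes that were above background on all of them and whose symbols are not predicted or clone names. It is given for members detected on all arrays or called in a comparison, which leaves out S100a7a and S100a9. The gene most like S100a4 was Ecm1, which encodes an extracellular matrix protein of skin, with r = 0.96, and that most like S100a6 was Tpt1, a translationally controlled protein, with r = 0.97. For S100a11 it was Rpl35, a ribosomal protein gene, with r = 0.95, for S100a10 Apoe, the apolipoprotein E gene, with r = 0.93, for S100a14 Atp1b3, a sodium pump subunit, with r = 0.91, and for S100a16 Ndufs6, a subunit of respiratory complex I, with r = 0.78. S100a8 was most like Cstdc5, a stefin-type cysteine protease inhibitor gene, with r = 0.90. S100a8 was well above background on only 6 of the 20 arrays, so most of its values in this r were not. S100a3 was most like Arhgap29 with r = 0.88, which was 0.09 over the 15 telogen arrays alone. These arrays share the scaling described above, and r includes the difference between phases.

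Among the members, S100a4, S100a6, S100a10 and S100a11 varied together. S100a6 had r = 0.92 with S100a10 and with S100a4 over the 20 arrays, and 0.87 and 0.97 over the 15 telogen arrays. S100a6 and S100a11 had r = 0.85 over 20 arrays and 0.96 in telogen. S100a4 and S100a8 had r = -0.71 over 20 arrays, which includes the difference between phases, and 0.03 in telogen. S100a8 was well above background on only 1 of the 15 telogen arrays, so the telogen value cannot show whether they vary together there.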

How the data were processed

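The deposited scanner files hold, per the file headers, 1-colour spot intensity values with the background subtracted, from Agilent Feature Extraction 10.7.1.1 per the submitters' processing notes. The authors' series table holds a linear signal per probe, within 0.05 log2 units of the same intensity over a constant of each array for 85.5% to 96.8% of probes. Spots of a probe were averaged, and the log2 of this mean minus that of the array's 75th percentile was the level. Of 59305 spots per array, 0 were saturated and 62 to 159 outliers were left out. Probes well above background on all 3 arrays of a telogen group, or on at least 3 of 5 anagen arrays, were kept. Of 56605 probes, 32994 matched 1 RefSeq symbol by accession and 23611 none. A gene was its brightest kept probe.

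A fit with limma 3.58.1 (R 4.3.3, data.table at 1.17.8) covered the 15 telogen arrays, and another set anagen against telogen over 20 arrays, adjusting for condition. Tests were two-sided, with Benjamini-Hochberg adjustment over 18727 genes. The fits were tested on simulated data. The number of arrays limits the precision. The members and gene lists were chosen with earlier results of these data known. The named genes are the 10 members whatever their p; from each list, the genes past the threshold and up to 4 others with the smallest p; for likeness, the 1 gene with the highest correlation to each member detected on all arrays or called. Alternatives were normexp (offset 50), quantile, median or no scaling, a percentile over detected probes, the series table, other filters, the mean over probes, eBayes with trend and robust, fewer arrays, replicate and slide blocks, and leaving out each array. Same-numbered replicates are not stated to be paired.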

Additional observations from a re-analysis of the deposited data

Results flagged for a closer look

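The HFD 3 months anagen array stood far from the other 4 anagen arrays for 3 members: S100a14 at 6.37, S100a4 at 5.53 and S100a6 at 7.44. Chance alone flags about 1 in 20 groups of this size, a rate for independent groups, whereas S100a4 and S100a6 varied together (r = 0.92 over 20 arrays). The same array had the lowest 75th percentile signal of the anagen arrays, 1483, and its part was not tested.

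Anagen arrays lay on opposite sides of all 3 telogen arrays in different conditions for 4 members, and these differences between conditions were not tested. For S100a9, anagen minus mean telogen was 6.56 in aged, -3.19 in HFD 3 months, 1.17 in ND 3 months, 4.30 in HFD 4 days and 5.87 in ND 4 days. For S100a11 it was 0.37 in HFD 3 months, -0.43 in ND 3 months, -0.36 in HFD 4 days and -0.55 in ND 4 days. For S100a14 it was 0.37 in HFD 3 months and -0.22 in ND 3 months. For S100a16 it was 0.49 in aged, -0.29 in ND 3 months, 0.47 in HFD 4 days and -0.18 in ND 4 days.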

How the results depend on the processing

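Of the 9 members tested, 4 were called between anagen and telogen, S100a8 among them, against 6.11% of all genes. S100a8 and S100a9 passed the filter on dim probes only through their anagen arrays. Counts that include them therefore show only how the calls moved with the processing. The count was 2 within the slides shared by both phases, and 2 to 6 leaving out 1 array. It was 2 without the ND 4 days or the HFD 4 days anagen array, which lost S100a3 and S100a6. It was 6 without the HFD 3 months anagen array, which added S100a9 and S100a10. With no filter 3 of 10 members were called, S100a8 among them. S100a4 was called under all 32 alternatives (-2.54 to -1.87), S100a8 under all 31 (2.82 to 6.06), S100a3 under 29 of 32 and S100a6 under 12 of 32. The scaling moved the median of all genes, which was -0.02 with quantile normalization, 0.06 with scaling by the median and 0.23 without scaling, an alternative chosen after seeing the data, against -0.16 as reported.

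S100a11 turned to 0.20 without scaling and 0.025 with scaling by the median. In telogen, 0 members were called under any alternative run for any of the 8 comparisons, and the lowest adjusted p was 0.372. The replicate block gave 0 called members in each of them. Deviations of same-numbered arrays correlated between -0.04 and 0.06, which cannot exclude a pairing that the labels do not state. The directions that turned were all of values not called. Leaving out 1 array moved S100a8 between -0.29 and 2.59 for diet at 4 days and between -0.068 and 1.37 for diet over both durations. Without scaling, aged against ND 3 months was 0.024 for S100a6 and 0.29 for S100a10. The slide block gave 2.23 for S100a3 and 4.91 for S100a8 in aged against ND 4 days, 2.62 for S100a3, -8.48 for S100a9 and 0.58 for S100a10 in ND 3 months against ND 4 days, and -0.35 for S100a3 in diet by duration. Within telogen that term rests on single anagen arrays, and the cause of the turns was not tested.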
